A study of Homo sapiens with 15 samples.

Results

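The genes described here code for the proteins of the cytosolic ribosome and their close paralogs. They were taken by symbol from a matrix of 41412 gene rows: all symbols made of RPL or RPS, a number and at most one of the endings A, X, L, AL or L1, together with RPLP0, RPLP1, RPLP2 and RPSA. This gave 85 genes on 21 chromosomes, of which 43 belong to the large subunit, 31 to the small subunit, 3 to the P stalk of the large subunit and 8 are paralogs (RPL3L, RPL7L1, RPL10L, RPL22L1, RPL26L1, RPL36AL, RPL39L and RPS27L). Symbols of ribosomal protein pseudogenes were not taken. A filter on low counts passed 84 of the 85. The gene left out was RPL10L, the autosomal copy of RPL10 known from testis, which had 1 count over all 15 libraries.

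RNA was measured in HepG2, an established human hepatocellular carcinoma line whose genotype is described as wild type. There were 5 groups of 3 biological replicates, all collected at 48 h. In 4 groups the cells received 1 µg of mRNA for enhanced green fluorescent protein in the lipid nanoparticle reagent NanoLNP. The mRNA given was non-cloaked or had first been reacted with an agent called CR-3 to a weak (0.1 M, 0.5 h, 25 °C), medium (0.5 M, 1 h, 30 °C) or strong (1 M, 2 h, 37 °C) grade, and the fifth group was untransfected. No group received particles without mRNA, so particle and mRNA cannot be told apart in any comparison with untransfected cells.

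Ribosomal proteins coat and shape the ribosomal RNA, and each is normally present once per ribosome except for the proteins of the P stalk. Cells make them in matched amounts, and their mRNAs are among the most abundant in a growing cell. Most of these mRNAs are TOP mRNAs: they begin with a cytosine followed by a run of pyrimidines, through which the mTOR kinase and the RNA-binding protein LARP1 control their translation and stability.

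The annotated start of most members shows this element, and starts with and without it are printed here. Sequences are from RefSeq on GRCh38.p14 and cover 20 bases before and 30 bases from an annotated start, in the sense of transcription. Capitals mark a C followed by at least 4 letters that are each C or T, searched on the sense strand alone and beginning within 5 bases of the start. RPS12 and RPS19 stand for the small subunit and RPLP0 for the stalk. The rest are paralogs and parents, each paralog after its parent where the parent is shown.
RPS12, chr6:132814549-132814598, plus strand: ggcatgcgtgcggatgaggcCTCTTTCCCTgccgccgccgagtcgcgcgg
RPS19, chr19:41860235-41860284, plus strand: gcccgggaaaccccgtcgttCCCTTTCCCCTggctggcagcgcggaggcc
RPLP0, chr12:120201082-120201131, minus strand: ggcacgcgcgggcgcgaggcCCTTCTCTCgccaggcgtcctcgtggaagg
RPL22, chr1:6199566-6199615, minus strand: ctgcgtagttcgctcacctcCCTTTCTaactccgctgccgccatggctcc
RPL22L1, chr3:170870166-170870215, minus strand: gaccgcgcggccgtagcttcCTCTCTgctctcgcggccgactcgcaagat
RPL36A, chrX:101390991-101391040, plus strand: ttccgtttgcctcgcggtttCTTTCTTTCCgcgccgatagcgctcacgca
RPL36AL, chr14:49620597-49620646, minus strand: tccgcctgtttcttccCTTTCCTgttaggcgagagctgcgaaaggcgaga
RPS27, chr1:153990742-153990791, plus strand: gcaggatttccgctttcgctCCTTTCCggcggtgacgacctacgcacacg
RPS27L, chr15:63157448-63157497, minus strand: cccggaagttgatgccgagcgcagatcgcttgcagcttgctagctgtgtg
RPL26, chr17:8383164-8383213, minus strand: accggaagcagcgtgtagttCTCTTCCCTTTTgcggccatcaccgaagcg
RPL26L1, chr5:172958709-172958758, plus strand: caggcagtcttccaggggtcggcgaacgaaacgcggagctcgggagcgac
RPL7L1, chr6:42879596-42879645, plus strand: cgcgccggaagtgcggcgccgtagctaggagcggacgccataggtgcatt

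Capitals begin at the match nearest the annotated start, and C and T letters can run on upstream of them. In RPS12, RPS19, RPLP0 and the parents the match begins at the annotated start itself, and in RPL22L1 it is 6 letters long. In RPL36AL the nearest match begins 4 bases upstream, inside a longer run of C and T letters that starts further upstream. No match begins within 5 bases of the start in RPS27L, RPL26L1 and RPL7L1, though in RPL26L1 such letters lie further upstream in the printed stretch. Of 68 members matched in the promoter table, 55 had such a tract at an annotated start (80.9%). Besides paralogs, those without one included the core genes RPL6, RPL9, RPL15, RPL17, RPL27, RPS15, RPS26, RPS29 and RPS4X. Among tested genes outside the family the share was 3857 of 13463 (28.6%), and over all 35116 promoters in the table it was 7408 (21.1%). A match describes the letters only, since the start used in these cells was not measured.

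Before any comparison, weak-cloaked replicate 1 has to be set apart. On the first principal component of all tested genes it lay at -56.06, near the untransfected libraries (-74.95 to -72.46) and away from the other 11 transfected libraries (-9.35 to 47.89). It also had the lowest total, 57128519 counts, against up to 78548789 in strong-cloaked replicate 1, and results that rest on it are given with and without it. On that component, which carried 19.29% of the variance, it thus lay nearer the untransfected libraries than the group on its label. In the members it was intermediate, with a median log2 ratio to the untransfected mean of 0.112. That median was -0.0947 to 0.0839 in the untransfected libraries and 0.276 to 0.561 in the other transfected ones. These counts do not tell whether it was transfected like the others, so weak-cloaked values and overlaps with untransfected cells are read with that limit. All 8 hepatocyte markers were expressed (13450 to 16350 summed CPM, that is counts scaled to a common library size, in transfected and 13330 to 14960 in untransfected libraries). Of these, SERPINA1 (log2 fold change 0.46 ± 0.12 SE, adjusted p = 0.0174) and APOA1 (0.36 ± 0.12, adjusted p = 0.0462) were higher and HNF4A (-0.66 ± 0.14, adjusted p = 0.00535) and APOB (-0.53 ± 0.14, adjusted p = 0.0154) lower in transfected than in untransfected cells by the edgeR test described below. Of 4 leukocyte markers, the pan-leukocyte gene PTPRC had 8 counts in all and nearly all of the summed level (877 to 1250 CPM in transfected and 1116 to 1542 in untransfected libraries) was LYZ. The 6 fibroblast and endothelial markers summed to 9.17 to 13.2 CPM in transfected and 10.7 to 11.6 in untransfected libraries, with VWF lower in transfected cells (log2 fold change -1.24 ± 0.30, adjusted p = 0.0108 in edgeR). The part of these marker differences in the results was not tested.

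The ribosomal protein genes took up a slightly larger share of all counts in transfected cells. Their summed counts made up 12.6%, 13.4% and 14.3% of the library in the non-cloaked replicates, 11.9%, 13.7% and 13.5% in the weak-cloaked, 13.2%, 13.4% and 13.4% in the medium-cloaked and 13.7%, 13.7% and 13.1% in the strong-cloaked, against 12.3%, 11.8% and 10.9% in the untransfected replicates. The group means were 13.4% ± 0.838, 13.1% ± 0.981, 13.3% ± 0.0983 and 13.5% ± 0.33, against 11.7% ± 0.716 (SD, n = 3 each). Weak-cloaked replicate 1 lay inside the untransfected range and the other 11 transfected libraries lay above it. Rows of ribosomal protein pseudogenes, which could share reads with their parents, held 1.5% to 1.66% as many counts as the members.

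**Figure D1:**
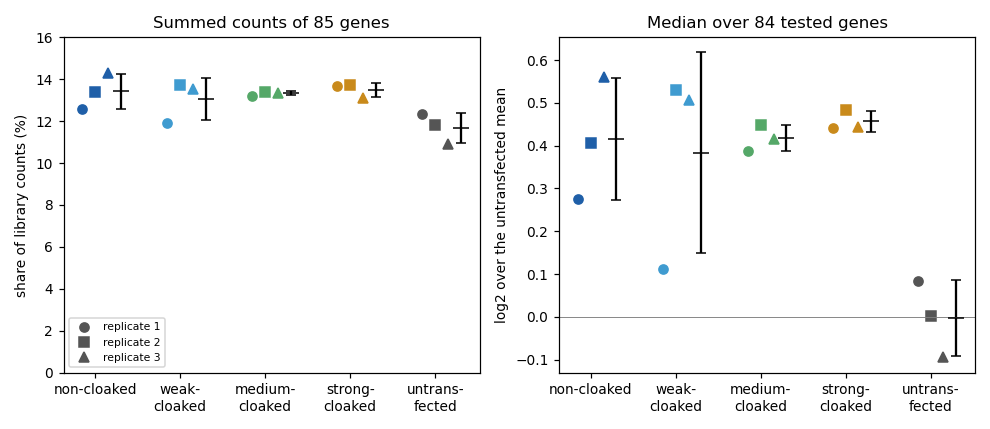
Summed counts of the 85 ribosomal protein genes as a percentage of each library (left) and the median over the 84 tested genes of the log2 ratio to the untransfected mean (right), with 1 point per library and the group mean ± SD in black. On the left the weak-cloaked replicate 1 point (11.9%) sits inside the untransfected range of 10.9% to 12.3%, and on the right it lies at 0.11, against 0.28 to 0.56 in the other transfected libraries.

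On a scale corrected for library composition, the family rose together by a small factor. With the mean of the 4 transfected groups set against the untransfected group, 66 members rose, 1 fell and 17 did not pass the test. The test was edgeR's quasi-likelihood F test, with p-values adjusted by Benjamini-Hochberg over 18380 genes and a threshold of 0.05. It called 23.1% of all genes tested, with 10.4% higher and 12.7% lower. The median log2 fold change of the members was 0.42, a factor of 1.34, with an interquartile range of 0.37 to 0.47, while the median over all tested genes was -0.05. The 95% interval of a member's fold change reached, at the median, 0.227 to either side. Without weak-cloaked replicate 1 the counts were 69 higher and 1 lower and the members' median was 0.45. Without untransfected replicate 2 the counts were 42 higher and 1 lower, and without untransfected replicate 3 they were 32 and 1. Over all tested genes the calls in these runs were 5938, 2148 and 2779, against 4242 with all libraries. Scaling libraries by total counts alone gave 36 higher and 1 lower and a median of 0.19, with 945 higher and 4358 lower over all tested genes.

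The sizes were alike in both subunits. In the large subunit 36 of 43 genes rose and none fell (median 0.43), and in the small subunit 25 of 31 rose and none fell (median 0.43). Of the 3 stalk genes 2 rose, and of the 7 tested paralogs 3 rose and 1 fell (median 0.17). With 12 transfected and 3 untransfected libraries, 30 of the 84 members had every transfected library above every untransfected one, as did 5.12% of all tested genes. Without weak-cloaked replicate 1 it was 62 members, against 10% of all tested genes. In bulk RNA, more of a transcript per cell and a change in the mix of cells cannot be told apart.

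**Figure D2:**
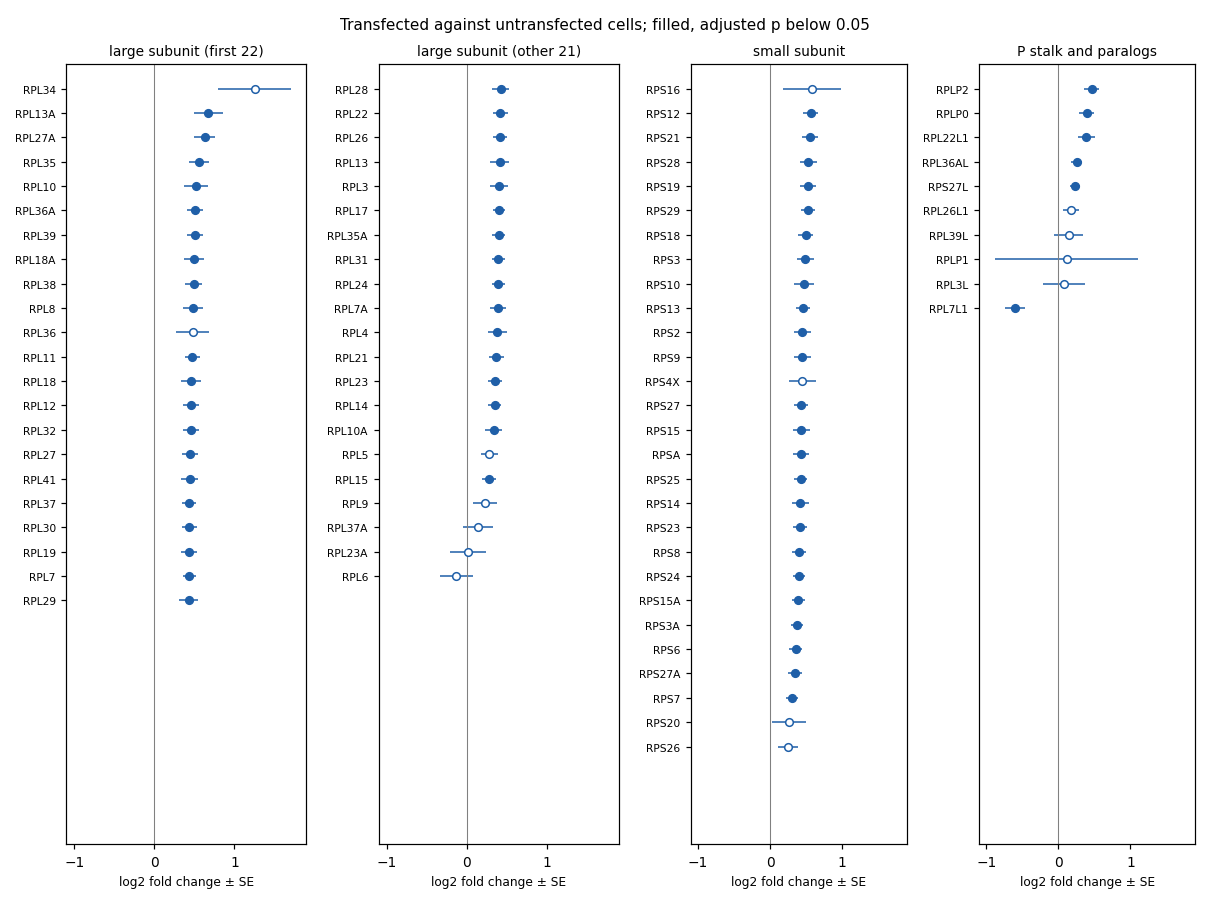
Log2 fold change of transfected over untransfected cells with its standard error for 81 of the 84 tested genes, ordered by size within the large subunit (split over 2 panels), the small subunit, and the P stalk with the paralogs. Filled points passed an adjusted p of 0.05, and most lie between 0.3 and 0.6, with RPL7L1 alone filled below 0.

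RPS12, a small-subunit protein of the beak of the ribosome (ENSG00000112306, chromosome 6, 132814441 to 132817564 on GRCh38), shows the pattern library by library. Its scaled level was 1304, 1425 and 1588 CPM in non-cloaked, 1109, 1595 and 1469 in weak-cloaked, 1393, 1525 and 1431 in medium-cloaked and 1393, 1482 and 1406 in strong-cloaked cells, against 1031, 1001 and 864 in untransfected cells. All 12 transfected libraries were above the 3 untransfected ones, and the lowest of them was weak-cloaked replicate 1. The log2 fold change was 0.56 ± 0.11 (SE, adjusted p = 0.00364).

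RPL27A and RPL35, both of the large subunit, were also among the 8 largest changes. RPL27A ranged from 1279 to 1908 CPM over the 12 transfected libraries (median 1731), against 1288, 851 and 1167 in the untransfected ones, a log2 fold change of 0.63 ± 0.13 (adjusted p = 0.00614). RPL35 ranged from 622 to 1071 (median 932), against 665, 588 and 582, a change of 0.56 ± 0.12 (adjusted p = 0.00683). In both genes only weak-cloaked replicate 1 reached into the untransfected range. The small-subunit genes RPS21 (0.55 ± 0.11) and RPS28 (0.53 ± 0.12) behaved the same way, with adjusted p of 0.00576 and 0.00728.

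The largest fold change that passed was that of RPL13A, a large-subunit protein that in human myeloid cells also leaves the ribosome to silence inflammatory mRNAs (ENSG00000142541, chromosome 19, 49487554 to 49492308). It had 4350, 4580 and 5182 CPM in non-cloaked, 3545, 4887 and 4209 in weak-cloaked, 3995, 4388 and 4598 in medium-cloaked and 4403, 5097 and 3342 in strong-cloaked cells, against 3857, 1999 and 2365 in untransfected cells. Untransfected replicate 1 overlapped the transfected libraries. The log2 fold change of 0.68 ± 0.18 (adjusted p = 0.017) was 0.49 without untransfected replicate 2 (adjusted p = 0.102) and 0.57 without untransfected replicate 3 (adjusted p = 0.0863), and it was 0.45 with total-count scaling (adjusted p = 0.0551).

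RPS19 and RPL11 rose, and RPL5, the partner of RPL11, did not pass. RPS19, the gene most often mutated in Diamond-Blackfan anaemia, ranged from 1189 to 1932 CPM (median 1704) in transfected libraries, against 1214, 1108 and 1123 in untransfected ones, a log2 fold change of 0.53 ± 0.11 (adjusted p = 0.0057). RPL11, which with RPL5 and 5S ribosomal RNA forms the particle that binds the ubiquitin ligase MDM2, had 1592 to 2118 (median 1860), against 1357, 1391 and 1220, with no overlap and a change of 0.47 ± 0.10 (adjusted p = 0.00508). RPL5 had 1303 to 1864 (median 1669), against 1401, 1303 and 1258, and its change of 0.28 ± 0.11 did not pass (adjusted p = 0.0668). Without weak-cloaked replicate 1 RPL5 was at 0.31 (adjusted p = 0.0159), and without non-cloaked replicate 2 it was also at 0.31 (adjusted p = 0.0499). The difference between the changes of RPL11 and RPL5 was not tested.

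RPS6, the substrate from which S6 kinase takes its name, had 2005 to 2681 CPM (median 2362) in transfected libraries, against 1871, 1993 and 1636 in untransfected ones, a log2 fold change of 0.35 ± 0.09 (adjusted p = 0.0132). RPSA, first described as a laminin receptor, changed by 0.42 ± 0.11 (adjusted p = 0.0169), and RPS27A, which is made as a fusion with ubiquitin, by 0.35 ± 0.10 (adjusted p = 0.0265). RPS27A was not above the untransfected range in non-cloaked replicates 2 and 3, with 1044 and 1141 against 1193, 1232 and 1095 CPM. Leaving out single untransfected libraries ended the calls of RPS6 (replicate 3, adjusted p = 0.0875), RPSA (replicates 2 and 3, adjusted p = 0.0688 and 0.0728) and RPS27A (replicates 1, 2 and 3, adjusted p = 0.0832, 0.07 and 0.13). Total-count scaling ended them too, with RPS6 at 0.12 (adjusted p = 0.207), RPSA at 0.19 (adjusted p = 0.0641) and RPS27A at 0.12 (adjusted p = 0.367).

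The P stalk recruits the translation factors that hydrolyse GTP, and its genes did not share 1 pattern. RPLP0, its base, had 3244 to 4945 CPM (median 4511), against 3579, 3325 and 3225 in untransfected libraries, and rose by 0.39 ± 0.11 on the log2 scale (adjusted p = 0.0178). Its call was lost without untransfected replicate 2 or 3 (adjusted p = 0.0727 and 0.0772), and with total-count scaling, where it was at 0.16 (adjusted p = 0.0735). RPLP2 had 568 to 841 (median 745), against 567, 531 and 514, and rose by 0.47 ± 0.10 (adjusted p = 0.00759).

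RPLP1, the partner of RPLP2 (ENSG00000137818, chromosome 15, 69452784 to 69456194), had 70.2, 1063 and 99.8 CPM in non-cloaked, 83.9, 103 and 114 in weak-cloaked, 163, 139 and 1194 in medium-cloaked and 1159, 107 and 117 in strong-cloaked cells, against 89.9, 656 and 117 in untransfected cells. One library in each of 4 groups, untransfected among them, was high, and the others were at or below 163. The log2 fold change was 0.12 ± 0.99 (adjusted p = 0.947), and it was below 0 without non-cloaked replicate 2, medium-cloaked replicate 3, strong-cloaked replicate 1 or untransfected replicate 1 or 3.

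A small set of members varied widely between replicates of the same group. In 10 members the highest replicate of some group was at least 2-fold above the lowest, among them RPLP1, RPS16, RPL34, RPL23A, RPL3L, RPS20, RPL37A, RPL6 and RPL36. None of the 10 was called, and of the other 74 tested members 67 were. The test sets a fold change against this same spread, so the split follows in part from how the 10 were picked. The share called by spread was not counted over all tested genes. Among genes with a mean of at least 100 CPM, such a spread was found in 9 of 78 members (11.5%) and in 287 of 1652 other genes (17.4%). The largest spread was in RPLP1 (15.1-fold among non-cloaked replicates), and RPS16 and RPL34 spread by 3.72-fold and 3.21-fold among untransfected replicates.

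RPL34 of the large subunit (ENSG00000109475, chromosome 4, 108620566 to 108630412) had the largest fold change of all members without passing the test, 1.25 ± 0.46 (adjusted p = 0.0663). It had 247, 572 and 634 CPM in non-cloaked, 483, 641 and 206 in weak-cloaked, 565, 590 and 580 in medium-cloaked and 218, 582 and 560 in strong-cloaked cells, against 113, 361 and 140 in untransfected cells. Non-cloaked replicate 1, weak-cloaked replicate 3 and strong-cloaked replicate 1 were low and untransfected replicate 2 was high. Without any one of these 4 libraries the change passed, at 1.33 to 1.95 (adjusted p from 0.033 to 0.049), and it passed in DESeq2 as well (adjusted p = 0.00813). These 4 were picked by their values, and leaving out a low transfected or high untransfected library enlarges the change by itself. Leaving out any other single library did not bring RPL34 past the test.

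RPS16, whose tail reaches the tRNA in the small subunit (ENSG00000105193, chromosome 19, 39433207 to 39435948), had 169, 523 and 428 CPM in non-cloaked, 816, 1249 and 1306 in weak-cloaked, 818, 514 and 1144 in medium-cloaked and 705, 1254 and 1276 in strong-cloaked cells, against 558, 214 and 796 in untransfected cells. The untransfected libraries lay within the range of the transfected ones, and the change of 0.58 ± 0.40 did not pass (adjusted p = 0.323). Among the other members outside the call, RPL6 was at -0.13 ± 0.21, RPL23A at 0.02 ± 0.23 and RPL37A at 0.14 ± 0.19 on the log2 scale. The sign of RPL23A turned without non-cloaked replicate 2, weak-cloaked replicate 1, medium-cloaked replicate 3 or untransfected replicate 3, and RPL23A and RPL37A were below 0 with total-count scaling.

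**Figure D3:**
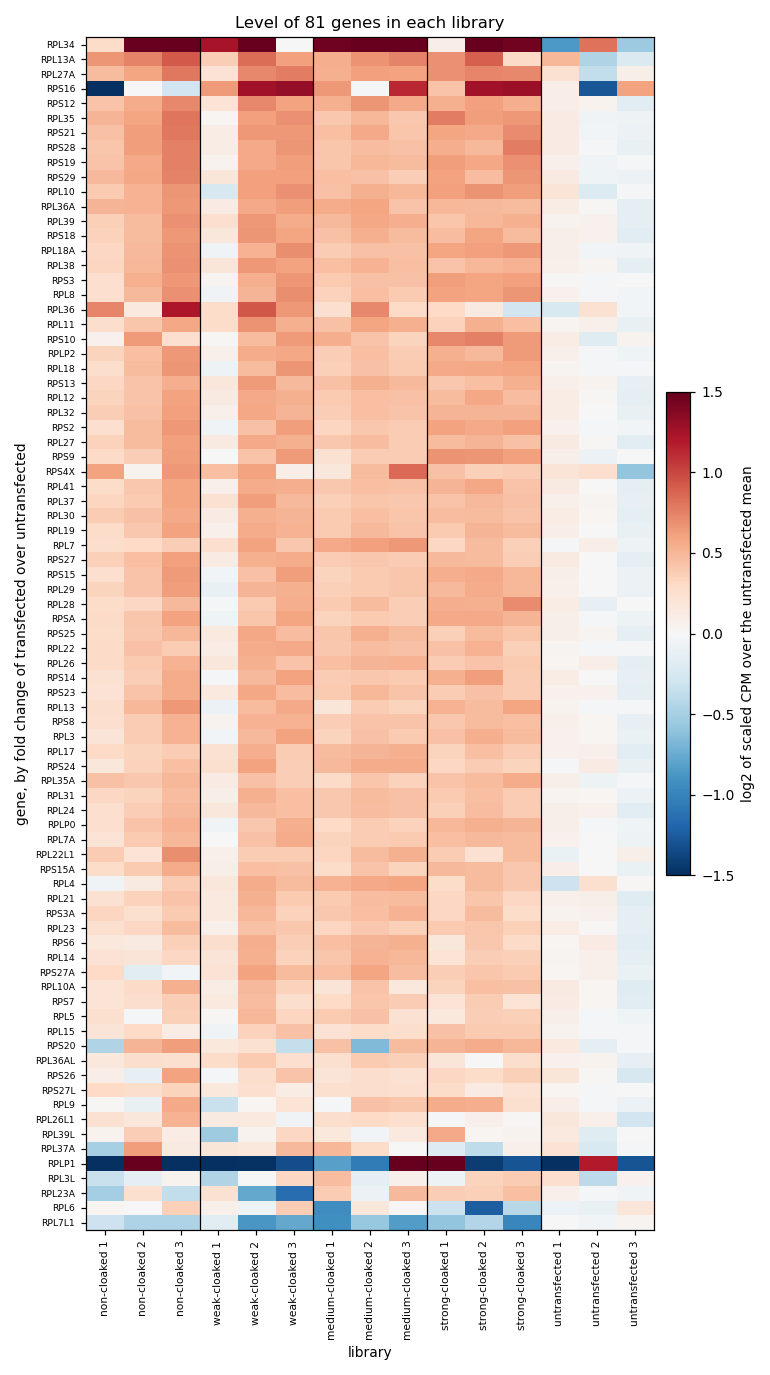
Log2 of the scaled CPM, with a pseudocount of 0.5, over the untransfected mean for 81 of the 84 tested genes (rows, by fold change) in the 15 libraries (columns), with a bounded colour scale. Most rows are red in the transfected columns, pale in weak-cloaked replicate 1 and near 0 in the untransfected columns, and the bottom row, RPL7L1, is blue in the transfected columns.

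Each grade was also set against the untransfected group, the same 3 libraries serving all 4 comparisons. In non-cloaked cells 26 members rose and none fell (all tested genes: 6.5% called, 3.84% higher and 2.66% lower), in weak-cloaked cells 6 rose and none fell (3.29% called, 2.11% higher and 1.19% lower), in medium-cloaked cells 42 rose and 1 fell (13.7% called, 6.25% higher and 7.49% lower), and in strong-cloaked cells 57 rose and 1 fell (15.1% called, 7.99% higher and 7.11% lower), in the same quasi-likelihood fit. The median log2 fold changes of the members were 0.42, 0.39, 0.42 and 0.47, so the counts differed far more than the sizes. The 6 called in weak-cloaked cells were RPS12 (0.53 ± 0.13), RPL11 (0.50 ± 0.12), RPL39 (0.50 ± 0.12), RPL37 (0.46 ± 0.11), RPL7 (0.43 ± 0.10) and RPL17 (0.39 ± 0.10). Those called in non-cloaked cells included RPL13A, RPL35, RPS21, RPL27A, RPS29, RPS28, RPS19, RPS12, RPL36A, RPL39, RPL38, RPS18, RPLP2, RPL32, RPL27, RPS27, RPL30, RPL12, RPL35A, RPL37, RPS13, RPL11, RPS15A, RPL26 and RPS27L.

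In medium-cloaked cells the largest called increases were RPL7, RPS12, RPL27A, RPL4 and RPL39, and in strong-cloaked cells they were RPL27A, RPS10, RPL35, RPS9 and RPL10. The gene that fell in both was RPL7L1. Weak-cloaked replicate 1 shares the estimate of spread with every group. Without it 60, 65, 68 and 61 members were called higher in non-, weak-, medium- and strong-cloaked cells, and 1, 2, 1 and 1 lower. Over all tested genes 3107, 4007, 3789 and 4191 of 18823 were then called, against 1195, 605, 2524 and 2776 of 18380 with it. The weak-cloaked median was then 0.51. Leaving out other single libraries also moved these counts by over 1.5 times. Without an untransfected library 0 to 2 members were called in either direction in non-cloaked and 0 or 1 in weak-cloaked cells. In medium-cloaked cells 13 to 19 were called and in strong-cloaked cells 6 to 33. Calls over all tested genes fell as well, to 235 to 379, 135 to 395, 1034 to 2089 and 948 to 1757. Without a library of the group itself the counts were 0 for either of non-cloaked replicates 2 and 3 or weak-cloaked replicates 2 and 3. The counts were 6 to 16 for the medium-cloaked replicates and 5 to 25 for the strong-cloaked ones. The calls over all tested genes were then 119 and 185, 114 and 126, 785 to 1249, and 728 to 1497, in the same order. Libraries of the remaining groups moved some counts as well. The non-cloaked count was 9 to 13 without any one medium- or strong-cloaked library and 46 without weak-cloaked replicate 3. The weak-cloaked count was 0 to 3 without any one medium- or strong-cloaked library or non-cloaked replicate 1 or 2. The medium-cloaked count was 28 without strong-cloaked replicate 1. Calls over all tested genes were then 590 to 886, 1996, 383 to 526 and 2127, in the same order. Since all calls moved with them, these shifts are not read as results about the members.

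Whether cloaking itself changed ribosomal protein mRNAs was examined by comparing every cloaked grade with non-cloaked mRNA. No member was called in weak-cloaked (all tested genes: 0.00544% called), medium-cloaked (0%) or strong-cloaked cells (0%), nor in an F test across all 4 transfected groups (0.00544%), each in edgeR's quasi-likelihood fit. At an unadjusted p below 0.05 there were 3, 6 and 6 members, and 3 in the F test, of 84. Over all 18380 tested genes there were 721, 1746 and 663, and 753 in the F test. The member counts are not read as a result about the members. DESeq2, run for the 3 pairs, called 0 members in each, and 19, 73 and 15 of 27190 genes. The median log2 fold changes over the members were -0.04, -0.01 and 0.05, against 0.02, -0.02 and 0.01 over all tested genes. For strong-cloaked against non-cloaked cells the unadjusted 95% interval of a member's fold change reached, at the median, 0.278 to either side. That width is not the detection limit of the test adjusted over all tested genes, which larger differences could also miss. The absence of calls therefore does not show that the grades were alike.

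The members of smallest unadjusted p were mostly the same few. They were picked on these same values, so a separation of their libraries follows in part from that choice. How many of all tested genes separated in this way was not counted. RPS27A had 1364, 1788 and 1627 CPM in weak-cloaked, 1609, 1774 and 1621 in medium-cloaked and 1514, 1567 and 1540 in strong-cloaked cells, against 1440, 1044 and 1141 in non-cloaked cells. Its log2 differences were 0.40 ± 0.13, 0.47 ± 0.13 and 0.35 ± 0.13, with adjusted p of 0.973, 0.457 and 1.0. All medium- and strong-cloaked libraries were above all non-cloaked ones, and weak-cloaked replicate 1 was not.
RPS16, with the values given above, differed by 1.59 ± 0.50 in weak-cloaked and 1.53 ± 0.50 in strong-cloaked cells (adjusted p = 0.973 and 1.0), and all 3 libraries of both groups were above the non-cloaked ones. Others were RPL7 (0.30 ± 0.10) and RPL4 (0.40 ± 0.15) in medium-cloaked cells, and RPL6 in strong-cloaked cells (-0.74 ± 0.27), with adjusted p of 0.474, 0.487 and 1.0.

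Paralogs of ribosomal proteins were far below their parents in these cells. Per 1000 nt of the shortest annotated coding transcript, the 77 core genes had 79.0 to 6780 CPM in untransfected cells (median 2019), with RPS2, RPL37A and RPLP0 highest and RPS28 lowest. RPS27L had 336, RPL36AL 102, RPL22L1 67.2, RPL26L1 48.7, RPL7L1 34.8, RPL39L 5.15 and RPL3L, the form of heart and skeletal muscle, 0.442. A level read against 1 transcript model is approximate, and RPS28, whose model is long, is an example.

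RPL7L1, related to a yeast factor for assembly of the large subunit (ENSG00000146223, chromosome 6, 42879618 to 42889925), was the only member that fell. It had 106, 94.9 and 94.9 CPM in non-cloaked, 117, 71.4 and 77.0 in weak-cloaked, 69.2, 88.5 and 73.1 in medium-cloaked and 86.6, 96.9 and 66.4 in strong-cloaked cells, against 132, 128 and 135 in untransfected cells. All 12 transfected libraries, weak-cloaked replicate 1 included, were below the untransfected ones. The log2 fold change was -0.60 ± 0.14 (adjusted p = 0.0086). By group it was -0.41 ± 0.18 in non-cloaked, -0.57 ± 0.18 in weak-cloaked, -0.77 ± 0.18 in medium-cloaked and -0.66 ± 0.18 in strong-cloaked cells, with adjusted p of 0.159, 0.0907, 0.0167 and 0.0307.

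Of the other 6 tested paralogs 3 rose and 3 did not pass, and their fold changes were not tested against those of the core genes. RPL22L1, a regulated partner of RPL22, had 35.9 to 55.4 CPM (median 44.5), against 31.7, 34.1 and 36.2, a log2 fold change of 0.39 ± 0.11 (adjusted p = 0.0264), and its call was lost without any one untransfected library (adjusted p from 0.0533 to 0.117). RPS27L had 192 to 223 (median 211), against 181, 174 and 176, with no overlap, and rose by 0.23 ± 0.06 (adjusted p = 0.0203). RPL36AL rose by 0.25 ± 0.08 (adjusted p = 0.0366). The calls of RPS27L and RPL36AL were lost without any one untransfected library (adjusted p from 0.0618 to 0.0997 and from 0.0795 to 0.188), and that of RPL36AL also without non-cloaked replicate 2, weak-cloaked replicate 2, medium-cloaked replicate 2 or 3, or strong-cloaked replicate 1 or 3. With total-count scaling the calls of all 3 were lost, with RPL22L1 at 0.16 (adjusted p = 0.238), RPS27L at 0.01 (adjusted p = 0.954) and RPL36AL at 0.03 (adjusted p = 0.83), and that of RPL36AL was also lost with no filter on low counts (adjusted p = 0.0665). RPL26L1 (0.17 ± 0.11), RPL39L (0.14 ± 0.20) and RPL3L (0.08 ± 0.29) did not pass, and their signs turned with total-count scaling, that of RPL3L also without untransfected replicate 2.

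A ratio of paralog to parent within a library depends little on how libraries are scaled, through the added constant alone. The mean log2 ratio of RPL7L1 to RPL7, with 0.5 added to each scaled level, was -4.52 ± 0.37 in the 12 transfected and -3.47 ± 0.13 in the 3 untransfected libraries (SD), a difference of -1.05. A two-sided exact permutation test over the libraries gave p = 0.0022, the smallest its arrangements allow, and 0.0154 after Benjamini-Hochberg adjustment over 7 pairs. The ratio was lower than in every untransfected library in 12 of 12 transfected libraries. With 2 untransfected libraries the adjusted p was 0.0769 without replicate 1 or 3 and 0.0385 without replicate 2. The test then has fewer arrangements and a larger smallest p, so these values cannot tell whether the difference weakened. The difference itself was -1.03 without replicate 1 and -0.989 without replicate 3.

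For RPL22L1 and RPL22 the difference of ratios was -0.04 (adjusted p = 0.745, exact permutation test). For RPL3L, RPL26L1, RPL36AL, RPL39L and RPS27L against their parents it was -0.33, -0.24, -0.25, -0.39 and -0.20, each with an adjusted p of 0.0385 in the exact permutation test, and 6, 9, 11, 9 and 10 of 12 transfected libraries were below every untransfected one. These 5 calls were weak: each was lost with a pseudocount of 0.1 and without any one of 11 or 12 of the 15 libraries. The members' median rose by 0.42 in transfected cells, against -0.05 over all tested genes. A gene that kept to the bulk would therefore also fall against such a parent, and ratios for genes outside the family were not tested. Reads shared between paralogs could lie in either count.

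Fold changes among the members were set beside features they share. The 55 tested members with a pyrimidine tract at an annotated start, as printed for RPS12 and RPLP0, had a median log2 fold change of 0.43 in transfected against untransfected cells. The 12 matched members without one had 0.27. They were the paralogs RPL7L1, RPS27L and RPL26L1 and the core genes RPL6, RPL9, RPL15, RPL17, RPL27, RPS15, RPS26, RPS29 and RPS4X. These core genes ranged from -0.13 in RPL6 to 0.52 in RPS29. The tested paralogs as a class had a median of 0.17, and no test separated the tract from the paralog class. Tested genes outside the family had -0.05 with a tract and -0.08 without. The members' transcripts were short, with a median of 813.5 nt against 2450 nt over all tested genes, and had 49.5% GC against 50.4%. Across the 84 tested members, which share the same libraries, Spearman's rho of the fold change was -0.371 with transcript length and 0.416 with GC content. The 2281 tested genes outside the family that were no longer than the members' median had a median fold change of 0.16. With offsets for length and GC the members' median was 0.29 against 0.02 over all tested genes, and 62 members were called higher and 1 lower. Over all tested genes 2452 were then called higher and 2020 lower.

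Scaling by total counts shifted the median of all tested genes by -0.225, and 17.8% of all calls were then higher, in place of 44.9%. The members' median was then 0.19, and the 1 member called lower was again RPL7L1. A change of scaling moves all genes by nearly the same amount, so it leaves the distance between the members and the other genes as it was and is no test of that distance. Fold changes given here are relative to the bulk of tested genes.

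Of 18 genes outside the family that are known for TOP mRNAs, 11 rose, none fell and 7 did not pass in transfected against untransfected cells. Over all tested genes 10.4% rose and 12.7% fell. The median log2 fold change of the 18 was 0.35, against -0.05 over all tested genes. FAU, which codes for a further ribosomal protein fused to a ubiquitin-like sequence, rose by 0.50 ± 0.12, and RACK1, a scaffold on the small subunit, by 0.34 ± 0.10. The elongation factor genes EEF1A1 (0.43 ± 0.14), EEF1B2 (0.57 ± 0.11), EEF1D (0.53 ± 0.11), EEF1G (0.79 ± 0.23) and EEF2 (0.40 ± 0.11) rose, as did TPT1 (0.36 ± 0.08), EIF3H (0.28 ± 0.07) and VIM (0.58 ± 0.14). The genes that did not pass were EIF3F (0.30 ± 0.11), PABPC1 (0.11 ± 0.08), EIF3E (0.09 ± 0.12), HNRNPA1 (0.08 ± 0.07), NPM1 (0.06 ± 0.11), NAP1L1 (0.03 ± 0.14) and EIF4B (-0.44 ± 0.49). No gene of the list was called when a cloaked grade was compared with non-cloaked mRNA.

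For genes upstream of the TOP mRNAs and for chaperones the counts were small, and beside the 10.4% that rose and 12.7% that fell over all tested genes nothing is read from them about these lists. Of 10 genes of the mTOR arm, 2 rose, EIF4EBP1, a repressor of translation initiation (0.53 ± 0.11), and RHEB, the activator of mTOR (0.39 ± 0.10). Another 2 fell, RPTOR, a subunit of mTOR complex 1 (-0.29 ± 0.09), and RPS6KB1, an S6 kinase (-0.78 ± 0.25), while LARP1 was at -0.11 ± 0.11. Of 5 dedicated chaperones of ribosomal proteins, HEATR3, which serves RPL5 import (-0.67 ± 0.21), fell and none rose. CDKN1A, a cell cycle inhibitor, rose by 1.24 ± 0.18, while MDM2, to which free RPL5 and RPL11 are known to bind, was at -0.65 ± 0.30 and MDM4 at -0.25 ± 0.16. Adjusted p of the called genes named in this group lay between 0.00107 and 0.0387 in edgeR's quasi-likelihood test.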

How the data were processed

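The authors deposited a matrix of raw read counts per gene for all 15 libraries. Per the labels' protocols, poly(A)-enriched, strand-specific libraries were read as 150 bp pairs after RNA had met an integrity number of 7.0. Per the submitters' processing notes, HISAT2, HTSeq, DESeq2 1.46.0, R 4.4.2 and the build GRCh38 were used. Which annotation was counted, how strand was treated and how the matrix was filtered is not given in the sources used here. Counts of paralogs, pseudogene parents and overlapping genes are therefore uncertain.

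Sample titles gave the groups and the replicate numbers. Replicates differed by more than sampling noise and each library counted as 1 sample. Counts were fitted in R 4.3.3 with edgeR 4.0.16 (filterByExpr, TMM factors, robust quasi-likelihood, 1 mean per group over 15 libraries), a procedure tested on simulated data. Benjamini-Hochberg adjustment ran over all 18380 genes that passed the filter. Levels are CPM, counts scaled by library size and TMM factor. Standard errors were taken from the fold change and the F statistic. The biological coefficient of variation was 0.344. Depth was 57128519 to 78548789 counts, so the spread between replicates and not counting error limits precision for most members. Ratios of paralog to parent were compared by exact permutation tests. Positions and transcript lengths came from GENCODE release 29 on GRCh38, and start sequences from RefSeq on GRCh38.p14.

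The members and gene lists were chosen with earlier results of these data known. Members named are the 8 largest and 8 smallest fold changes of transfected over untransfected cells, members of set roles, paralogs and their parents, and in other comparisons the called members (for the medium- and strong-cloaked groups, the 5 largest and any that fell) or the 3 of smallest p. Members with 2-fold spread were chosen after seeing their values. Some genes that meet these rules are not reported here, though they are counted in the totals. Alternatives were DESeq2 1.42.0 (its likelihood ratio test was not run for the F test), other scalings and filters, the replicate number as a block, length and GC offsets, a fit of the compared groups alone, single libraries left out, and, added after seeing the data, pseudogene counts added to their parent.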

Additional observations from a re-analysis of the deposited data

How the results depend on the processing

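The direction of the members' median in transfected against untransfected cells held in every alternative run, and the count of called members (67) was 62 to 69 in all but total-count scaling and the libraries left out. Total-count scaling gave 37 members called in that comparison, 9 in non-cloaked, 0 in weak-cloaked, 12 in medium-cloaked and 19 in strong-cloaked against untransfected cells, and a median of 0.19. The median was 0.29 with the length and GC offset, and 0.29 with that offset and the replicate block. In non-cloaked against untransfected cells (26 members) no filter gave 17, a fit of those groups alone 11 and DESeq2 54. In weak-cloaked against untransfected cells (6 members) a filter of 50 counts in 3 libraries gave 14, the block with the offset 15, a fit of those groups alone 0 and DESeq2 38, and in medium-cloaked against untransfected cells (43 members) the fit of those groups alone gave 68. In the comparisons of cloaked with non-cloaked cells 0 members were called in every alternative run. The medium-cloaked share of counts was 13.6% without mitochondrially encoded mRNAs and 13.5% with pseudogene rows added, against 13.3%. Calls over all tested genes moved in these runs too. With total-count scaling they were 5303, 1104, 690, 3036 and 3553, against 4242, 1195, 605, 2524 and 2776. For non-cloaked cells they were 814 with no filter, 1013 in the fit alone and 2912 in DESeq2. For weak-cloaked cells they were 844 with the 50-count filter, 1545 with block and offset, 4 in the fit alone and 1958 in DESeq2. For medium-cloaked cells the fit alone gave 3590. The causes of these differences were not tested.

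The replicate numbers did not pair the libraries: correlations of same-numbered deviations ran from -0.053 to 0.155, with 1 of 30 above 0.1, and 7 of 15 libraries were closest to one of their own number. With the replicate block 67, 25, 8, 44 and 61 members were called in all transfected, non-, weak-, medium- and strong-cloaked against untransfected cells. Over all tested genes the block gave 4304, 1424, 816, 2658 and 2958 calls. The block brought RPL34 past the threshold (1.37, adjusted p = 0.0305) and took RPL36AL out of it (0.25, adjusted p = 0.0521), and with the offset added they were at adjusted p of 0.0377 and 0.0508.

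Leaving out single libraries gave 33 to 70 members called in transfected against untransfected cells, and 0 to 61, 0 to 67, 6 to 69 and 5 to 62 in non-, weak-, medium- and strong-cloaked against untransfected cells. The highest value came each time without weak-cloaked replicate 1. Calls over all tested genes ran from 2148 to 5938, 119 to 3107, 114 to 4007, 785 to 3789 and 728 to 4191. Those calls were also highest without that library. The median of weak-cloaked against non-cloaked cells ran from -0.106 to 0.0955. Shares of counts ran from 13.0% to 13.8%, 12.7% to 13.6%, 13.3% to 13.4% and 13.4% to 13.7% in non-, weak-, medium- and strong-cloaked cells, against 11.4% to 12.1% in untransfected cells. Differences of the paralog ratios ran from -0.532 to -0.233 for RPL3L, -1.12 to -0.989 for RPL7L1, -0.106 to 0.0243 for RPL22L1 (above 0 without untransfected replicate 3), -0.309 to -0.161 for RPL26L1, -0.289 to -0.231 for RPL36AL, -0.514 to -0.32 for RPL39L and -0.255 to -0.134 for RPS27L. With a pseudocount of 0.1 the differences for RPL3L, RPL26L1, RPL36AL, RPL39L and RPS27L were -0.309, -0.237, -0.253, -0.382 and -0.200, with adjusted p of 0.228, 0.0615, 0.0615, 0.0738 and 0.0615 in the exact permutation test.

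Of the named members, signs turned with total-count scaling in RPL26L1 (-0.0523), RPL39L (-0.0875), RPL37A (-0.0879), RPLP1 (-0.125), RPL3L (-0.147) and RPL23A (-0.198), none of which was called. Without single libraries the log2 fold change ran from -0.451 to 1.59 in RPLP1, from -0.112 to 0.0793 in RPL23A and from -0.156 to 0.306 in RPL3L.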
